A study of Mus musculus with 10 samples.

Results

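The genes described here encode 5 RNA-binding proteins of germ cells, Ddx4, Dazl, Nanos2, Nanos3 and Dnd1. They were chosen by gene symbol and make up 5 of the 24470 entries of the count table. The data came from cultured testes of C57BL/6 mouse embryos at E12.5. From each of 5 male embryos, named M1 to M5, 1 gonad with its mesonephros was cultured for 48 h with 75 µM of CP 316819 (GPI), an inhibitor of glycogen phosphorylase, while its partner was kept in DMSO alone as vehicle. The mesonephros was removed before RNA was extracted, so each of the 10 libraries holds RNA of a whole gonad with all its cell types. Glycogen phosphorylase releases glucose units from stored glycogen, and the question was how the germline RNA regulators stood when this step was inhibited. Vehicle libraries held between 10203679 and 15590223 counts (median 11114376) and GPI libraries between 11025409 and 15635322 (median 11691690). Reads had been counted without regard to strand from amplified libraries with no molecular identifiers.

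Germ cells of the fetal gonad control many of their genes after transcription, through proteins that bind messenger RNA. DDX4, also called VASA, is a DEAD-box RNA helicase of the germ granule, where it works in the pathway of small piRNAs that silence transposons. DAZL binds messenger RNAs and controls their translation, and germ cells need it to enter sexual differentiation. NANOS2 and NANOS3 recruit the CCR4-NOT complex, which shortens poly(A) tails. NANOS3 protects primordial germ cells, and NANOS2 holds male germ cells back from meiosis. DND1 binds messenger RNAs together with NANOS2, and germ cells are lost without it.

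Promoter sequences of RefSeq genes (build GRCm38.p6) were at hand for 4 of the 5 members. Ddx4 and Dazl were each lower with GPI in the measurements that follow, and the Nanos genes were near the detection limit. The 250 bases before the start of transcription are shown for this reason. Each is given 5′ to 3′ on the strand of its gene, and capitals mark CACGTG, the palindromic E-box, and TCCCGC or its reverse complement GCGGGA.
Ddx4 (chr13:112652311-112652560, minus strand): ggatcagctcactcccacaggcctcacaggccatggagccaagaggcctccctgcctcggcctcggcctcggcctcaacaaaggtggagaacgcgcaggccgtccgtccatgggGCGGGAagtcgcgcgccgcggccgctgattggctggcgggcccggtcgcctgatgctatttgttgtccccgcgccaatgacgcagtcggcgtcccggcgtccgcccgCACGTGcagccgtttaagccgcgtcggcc
Dazl (chr17:50293621-50293870, minus strand): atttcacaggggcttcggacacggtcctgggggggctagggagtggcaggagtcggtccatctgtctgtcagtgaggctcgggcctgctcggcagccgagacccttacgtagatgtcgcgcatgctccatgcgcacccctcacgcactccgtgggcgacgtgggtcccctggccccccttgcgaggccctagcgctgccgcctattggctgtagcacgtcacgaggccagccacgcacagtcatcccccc
Nanos2 (chr7:18987274-18987523, plus strand): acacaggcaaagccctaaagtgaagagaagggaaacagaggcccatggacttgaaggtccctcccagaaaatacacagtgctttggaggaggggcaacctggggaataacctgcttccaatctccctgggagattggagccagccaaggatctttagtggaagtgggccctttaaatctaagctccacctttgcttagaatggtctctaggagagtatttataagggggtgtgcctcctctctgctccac
Nanos3 (chr8:84176553-84176802, minus strand): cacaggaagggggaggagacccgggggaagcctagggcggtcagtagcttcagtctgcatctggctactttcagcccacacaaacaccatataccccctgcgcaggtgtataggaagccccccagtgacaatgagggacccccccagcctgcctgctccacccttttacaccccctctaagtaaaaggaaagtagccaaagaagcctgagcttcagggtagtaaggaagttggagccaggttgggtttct

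The Ddx4 promoter held 1 CACGTG, which began 29 bases before the start, and 1 TCCCGC on the opposite strand, which began 136 bases before it. No copy of either was found in the Dazl, Nanos2 or Nanos3 window. Among 32851 RefSeq promoters of the same length, 6.02% held CACGTG, 16.9% held TCCCGC and 1.45% held both. The windows also differed in CpG dinucleotides, with 31 in Ddx4, 20 in Dazl, 3 in Nanos3 and 0 in Nanos2, against a median of 6 over all promoters. Ddx4 had more CpGs than 94.8% of promoters and Dazl more than 82.1%. These are descriptions of the letters in the windows, and binding or methylation there was not measured.

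Dazl (Entrez 13164, chr17:50279393-50293620 in mm10) had the most counts of the 5 genes. With vehicle it had 445, 970, 526, 706 and 254 normalized counts in M1 to M5, where normalized counts are counts scaled by edgeR's TMM method to a common library size. With GPI it had 52.6, 47.8, 3.8, 11.6 and 9.81. Every GPI gonad was below every vehicle gonad, and M1 and M2 kept the most Dazl under GPI. The raw counts with GPI were 47, 59, 4, 11 and 9, so the lowest libraries rest on few reads. Means were 580 ± 272 with vehicle and 25.1 ± 23.1 with GPI (SD, n = 5). The log2 fold change was -4.62 ± 0.34 (SE), a 24.7-fold decrease, lower in 5 of 5 embryos, with an adjusted p of 5.6e-07 (edgeR quasi-likelihood, Benjamini-Hochberg over the 13941 tested genes). By log2 fold change Dazl ranked 26 from the lowest of these genes.

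Ddx4 (Entrez 13206, chr13:112598333-112652310) fell less and less evenly. With vehicle it had 168, 353, 220, 347 and 114 normalized counts in M1 to M5. With GPI it had 44.8, 34.9, 13.3, 14.7 and 80.6. The groups did not overlap, but the highest GPI gonad, that of M5, came close to the lowest vehicle gonad, which was that of the same embryo. The M5 gonad with GPI held 71% of the Ddx4 of its partner, whereas the other pairs held between 4.25% and 26.6%. Means were 240 ± 107 with vehicle and 37.7 ± 27.5 with GPI (SD, n = 5). The log2 fold change was -2.72 ± 0.45 (SE), a 6.6-fold decrease, lower in 5 of 5 embryos, with an edgeR adjusted p of 0.000515. Without M5 it was -3.36 ± 0.34 (edgeR adjusted p = 3.47e-05). Among all tested genes 1.24% had a log2 fold change as low as that of Ddx4.

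Of the 3 members that passed the low-count filter, 2 were called lower at an adjusted p under 0.05, Dazl and Ddx4. Over all 13941 tested genes 11.9% were called lower and 11.1% higher, and 9.05% were lower with no overlap between the groups, as Dazl and Ddx4 were. The 1544 genes called higher numbered 969 without M3 and 1024 without M4. The near-even split depended on the scaling, since total counts alone gave 1972 lower and 1238 higher. In RNA of whole gonads, fewer germ cells and less RNA per germ cell cannot be told apart.

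**Figure D1:**
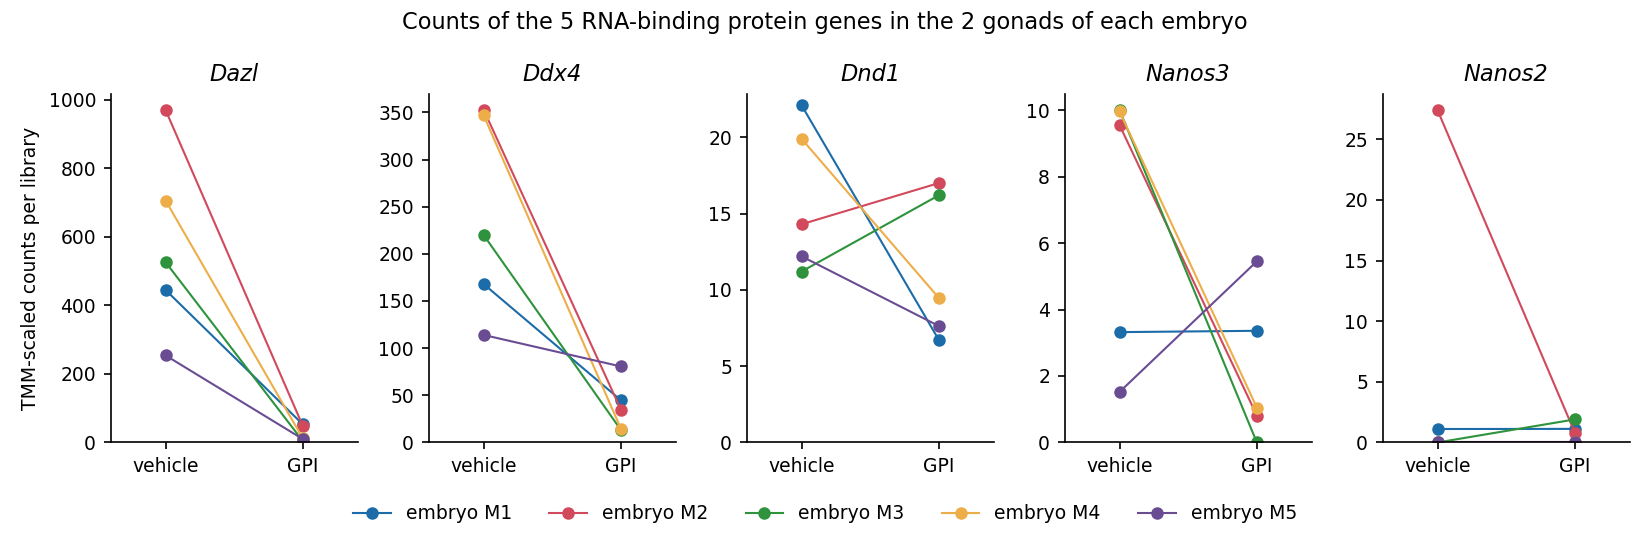
TMM-scaled counts (y axis, linear from 0, a separate scale for each gene) of the 5 genes in the vehicle and the GPI gonad of each embryo. Each line joins the gonads of 1 embryo: Dazl and Ddx4 fell in all 5 embryos, Dnd1 was lower in 3 and higher in 2, Nanos3 was lower in 3, level in M1 and higher in M5, and the Nanos2 counts with vehicle came almost wholly from M2.

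Dazl and Ddx4 changed by unequal amounts within embryos. Their within-embryo log2 ratios (GPI over vehicle, prior count 2) were -3.03, -4.29, -6.51, -5.71 and -4.44 for Dazl in M1 to M5. For Ddx4 they were -1.86, -3.27, -3.86, -4.38 and -0.48. Dazl fell further than Ddx4 in 5 of 5 embryos, by a mean difference of -2.02 ± 1.26 (SD, n = 5), with the gap widest in M5 (-3.95) and narrowest in M2 (-1.02). The exact two-sided sign-flip test over 5 embryos gave p = 0.0625, the smallest it can give with 5 pairs, and 0.0938 after Benjamini-Hochberg adjustment over 3 pairs of members. The sign-flip test therefore could not pass 0.05 with 5 embryos.

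The same contrast was visible as a ratio within each library, which needs no scaling between libraries. There were 2.64, 2.75, 2.39, 2.04 and 2.23 Dazl counts for each Ddx4 count in the vehicle gonads of M1 to M5. In the GPI gonads there were 1.18, 1.37, 0.286, 0.786 and 0.122. The ratio was narrow across vehicle gonads (mean 2.41 ± 0.291, SD, n = 5), lower in every GPI gonad, and spread widely among them (0.748 ± 0.543). This ratio was formed after the values were seen and is given without a test.

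**Figure D2:**
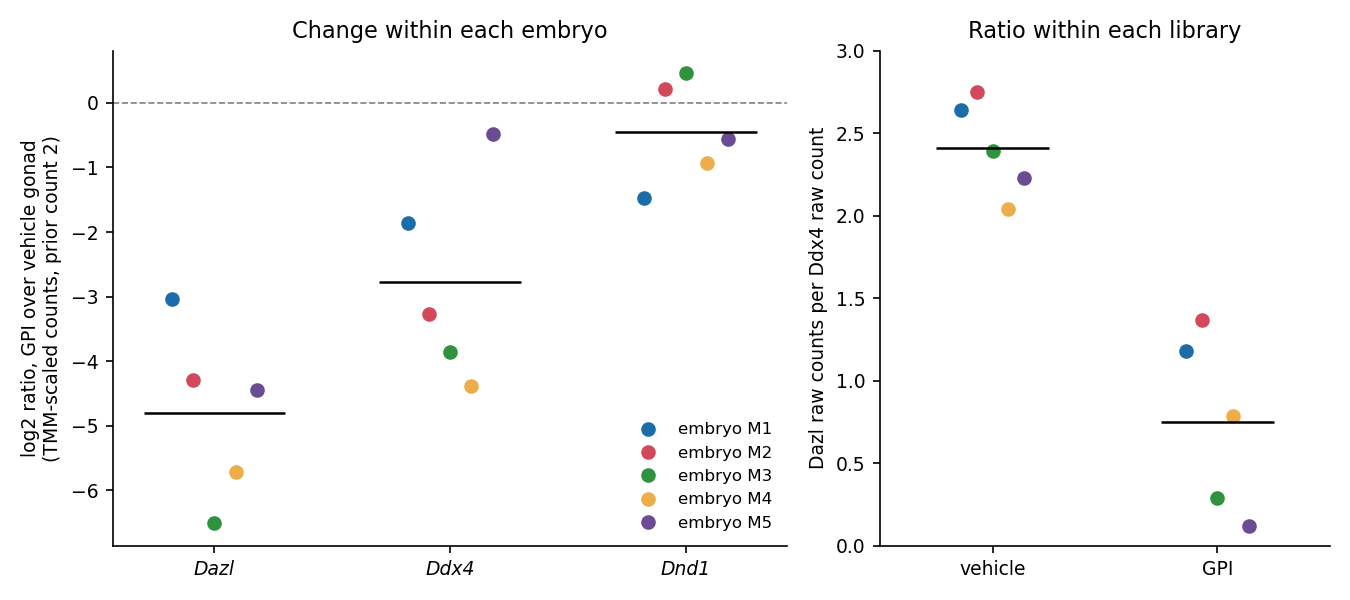
Left, log2 ratio of GPI over vehicle within each embryo (y axis) for the 3 tested members, with each dot an embryo and the bar the mean; right, raw Dazl counts per raw Ddx4 count in each library (y axis from 0), with the bar the mean of 5. Dazl lay below Ddx4 in all 5 embryos, and the ratio was between 2.04 and 2.75 with vehicle and between 0.122 and 1.37 with GPI.

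Under GPI, Ddx4 was highest in M5 and Dazl in M1. The M5 gonad with GPI also held 52.3 normalized counts of Tdrd1, a Tudor protein of the germ granule, against 31.2 in its partner, while the GPI gonads of the other embryos held 9.73 to 36.9 against 47.7 to 92.6. Sycp1, a component of the synaptonemal complex, had 7.83, 7.3, 0, 1.05 and 19.6 with GPI in M1 to M5, again highest in M5. The meiotic genes Smc1b and Hormad1 were highest in M1 with GPI, with 168 in M1 against 76.3 in M5 and 10.1 against 3.27. Stra8, also a meiotic gene, was level between M1 (7.83) and M5 (7.63). As a share of the partner gonad, Smc1b held 39% in M1 and 28% in M5, Hormad1 10% and 9.98%, and Stra8 11.6% and 62.6%. Hormad1 and Stra8 rest on at most 9 and 7 raw counts in a GPI library. The germ cell gene Dppa3 had 23.5, 16.2, 3.8, 5.26 and 1.09 with GPI, highest in M1. Dppa3 had 186 to 539 with vehicle, and its value in M5 with GPI rests on 1 read, which is under the 3 counts that a count of 0 allows. Sall4, of the same list as Dppa3, had 2.24, 0.811, 4.75, 2.1 and 5.45 with GPI, from 5 or fewer raw counts in each library. The germ granule genes did not share 1 order. Tex19.1, Mov10l1 and Stk31 had 3 counts or fewer in the M5 gonad with GPI, too few to rank it. The germ granule genes together had 379, 307, 241, 263 and 276 in M1 to M5. These orders across 5 embryos were not tested.

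Dnd1 (Entrez 213236, chr18:36763671-36766214) did not pass the test. Its raw counts were 20, 12, 10, 20 and 16 with vehicle and 6, 21, 17, 9 and 7 with GPI in M1 to M5. The groups overlapped, with M2 and M3 higher under GPI and the other 3 lower. The log2 fold change was -0.5 ± 0.45 (SE) with an edgeR adjusted p of 0.485. The within-embryo log2 ratio of Dnd1 lay above that of Dazl in 5 of 5 embryos, by a mean difference of 4.34 ± 1.94 (SD, n = 5, exact two-sided sign-flip p = 0.0625, adjusted 0.0938). Against Ddx4 the difference was 2.32 ± 2.01, positive in 4 of 5 embryos (exact sign-flip p = 0.125, adjusted 0.125). The result does not show that Dnd1 stayed level.

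The Dnd1 entry also shares sequence with a neighbour. It overlaps the end of Wdr55, a gene on the opposite strand, by 38 bases, and without strand the reads of the overlap cannot be assigned. Wdr55 had a mean of 359 ± 55.2 normalized counts with vehicle and 334 ± 55.7 with GPI (SD, n = 5; log2 fold change -0.11 ± 0.11, edgeR adjusted p = 0.537), against 15.9 and 11.4 for Dnd1. The share of Dnd1 counts that came from Wdr55 was not tested.

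Nanos3 (Entrez 244551, chr8:84173733-84176552) fell below the filter. Its raw counts were 3, 8, 9, 10 and 2 with vehicle and 3, 1, 0, 1 and 5 with GPI in M1 to M5. M2, M3 and M4 were high with vehicle and at 0 or 1 count with GPI, whereas M1 was level and M5 was higher with GPI. The 32 counts with vehicle and 10 with GPI gave normalized means of 6.88 ± 4.12 and 2.13 ± 2.23 (SD, n = 5). The exact two-sided permutation test of 5 against 5 gave p = 0.0714 and the exact sign-flip test over pairs 0.25, so no difference was shown.

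Nanos2 (Entrez 378430, chr7:18987524-18988962) was detected above a few reads in 1 library. Its raw counts were 1, 23, 0, 0 and 0 with vehicle and 1, 1, 2, 0 and 0 with GPI in M1 to M5. The M2 gonad with vehicle held 23 of the 24 vehicle counts, and 3 of 5 vehicle libraries were at 0. A count of 0 allows up to 3 counts, or between 2.29 and 3.35 normalized counts in those 3 libraries, by counting error alone. The exact two-sided permutation p was 0.881 and the sign-flip p was 1. Without M2 the mean difference turned from -4.94 to 0.48 normalized counts. M2 was also the vehicle gonad with the most Dazl, 970 normalized counts, and the most Ddx4, 353.

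Levels can be compared between genes only per length, for which the longest protein-coding GENCODE transcript was used. Per kilobase of transcript, the vehicle gonads held 195 ± 91.4 normalized counts of Dazl, 79.8 ± 35.5 of Ddx4, 11 ± 3.34 of Dnd1, 9.43 ± 5.65 of Nanos3 and 3.65 ± 7.78 of Nanos2 (SD, n = 5). Dazl stood above Ddx4, although the ranges of the embryos overlapped (85.2 to 326 and 37.7 to 117), and both stood clear of the other 3. Dnd1 and Nanos3 did not differ beyond their spread, nor did Nanos3 and Nanos2. With GPI the levels per kilobase were between 4.42 and 26.8 for Ddx4, 8.44 ± 7.78 for Dazl and 7.86 ± 3.35 for Dnd1. These 3 no longer differed beyond their spread, while Nanos3 had 2.92 ± 3.06 and Nanos2 0.49 ± 0.515.

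Genes of the germ granule and of the piRNA pathway, which work with DDX4, were lower wherever they were called. Of 20 such genes, 12 passed the filter, 9 were lower with GPI, and the median log2 fold change of the 12 was -2.15, against 0.02 over all tested genes. Of the 12, 5 reached the filter's level in no GPI library, so that they were tested through their vehicle counts. The count and the median lean on these 5 and are descriptions. Among the others, the log2 fold changes called lower were -2.4 for Fkbp6, -1.89 for Tdrd5, -1.43 for Tdrd1 and -0.84 for Rnf17. Pld6 (-0.69), Tdrd7 (-0.62) and Tdrkh (-0.45) were not called. With at least 10 counts required in every library, 3 germ granule genes were called lower. Stk31, a Tudor-domain kinase, fell by 5.34 ± 0.48 on the log2 scale (edgeR adjusted p = 3.12e-06), from 88.5 to 2.14 normalized counts. Tex19.1 fell by 4.78 ± 0.49 (edgeR adjusted p = 8.69e-06), and the piRNA helicase Mov10l1 fell by 4.92 ± 0.62 (edgeR adjusted p = 5.77e-05). Each of the 3 was lower in 5 of 5 embryos, and all 3 are among the 5 that were tested through their vehicle counts. Tdrd1 fell by 1.43 ± 0.46 (edgeR adjusted p = 0.039, lower in 4 of 5 embryos), and this call was lost without M2, M3 or M4, where the edgeR adjusted p was 0.128, 0.156 and 0.167. The 8 genes below the filter held 282 raw counts in the vehicle libraries together and 87 in the GPI libraries.

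Promoters of the germ granule genes often held the E-box seen in Ddx4. Among the 17 with a RefSeq promoter, 8 (47.1%) held CACGTG in the 250 bases before a start, against 6.86% of 27025 genes, and 3 (17.6%) held TCCCGC, against 18.8%. Of the 13 meiotic genes with a promoter 7 (53.8%) held CACGTG, and 7 held TCCCGC. In other lists CACGTG was held by 4 of 15 germline RNA regulators and 1 of 10 germ cell identity genes with a promoter. TCCCGC was held by 6 of 9 CCR4-NOT, 6 of 11 P-body and 3 of 5 mesonephros genes. A gene with several starts was counted if any of its windows held the letters. No test was made of these shares.

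Other RNA regulators of germ and early stem cells held calls in both directions. Of 18 genes, 15 were tested, 5 were lower and 2 higher, and their median log2 fold change was -0.2. The 2 higher stand beside 11.1% of all tested genes called higher, and nothing is read from them about the list. Of the 15, 2 reached the filter's level in no GPI library, Trim71 and Lin28a, and were tested through their vehicle counts. Trim71 fell by 4.82 ± 0.43 on the log2 scale (edgeR adjusted p = 2.47e-06). Dppa5a, a KH-domain protein of pluripotent cells, fell by 4.43 ± 0.48 (edgeR adjusted p = 1.64e-05), and Tex14, of the bridges between germ cells, by 2.43 ± 0.31 (edgeR adjusted p = 6.29e-05). Lin28a (-2.63) and Cpeb1 (-1.8) were the other calls with a decrease. The germ cell RNA-binding protein Rbm46 was higher, at 483 against 266 normalized counts (log2 fold change 0.86 ± 0.15, edgeR adjusted p = 0.000733, higher in 5 of 5 embryos), and Ybx2 was higher by 0.89 ± 0.28 (edgeR adjusted p = 0.0348). Elavl2 had 99.2 normalized counts with vehicle and 103 with GPI (log2 fold change 0.07 ± 0.19). The count of genes called higher was 1 without M1, M2, M4 or M5. Lin28a, Cpeb1, Rbm46 and Ybx2 were named after their values were seen.

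**Figure D3:**
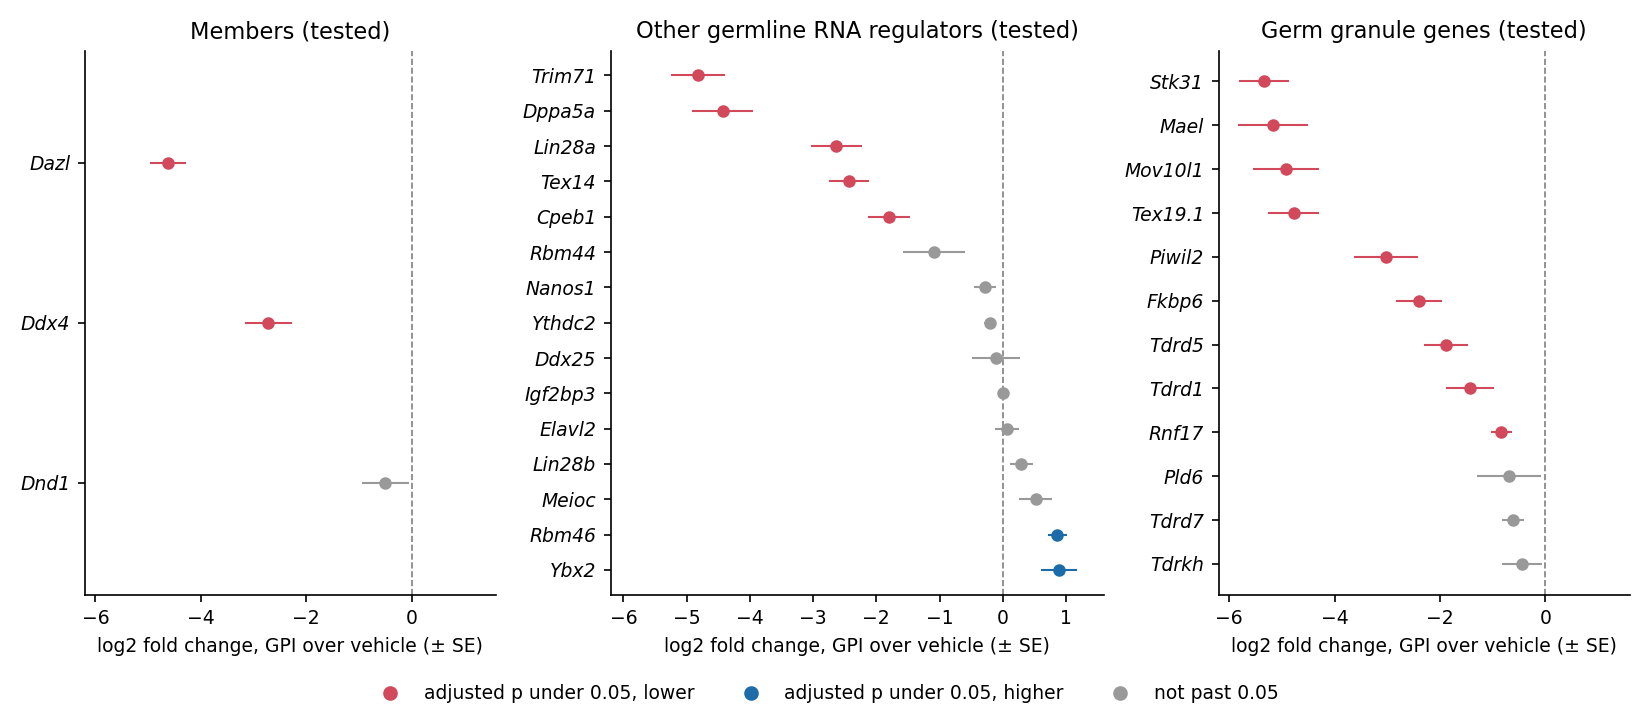
Log2 fold change of GPI over vehicle (x axis) with its standard error for the tested members, the tested germline RNA regulators and the tested germ granule genes. Red marks genes called lower, blue genes called higher and grey genes not past 0.05: Dazl lies at -4.62 and Stk31 at -5.34, while Rbm46 (0.86) and Ybx2 (0.89) lie above 0.

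Germ cell identity genes had 10 tested of 18 (1 of the 18, Gcna, was not in the table), with 5 lower and 2 higher and a median log2 fold change of -1.41. The count of lower genes depended on the test and filter, with 10 by DESeq2 or with no low-count filter and 1 with at least 10 counts required in every library. Dppa3 fell by 5.2 ± 0.36 (edgeR adjusted p = 3e-07), the pluripotency factor Sall4 fell by 4.89 ± 0.43 (edgeR adjusted p = 2.24e-06) and Prdm1, a factor that specifies germ cells, fell by 2.39 ± 0.22 (edgeR adjusted p = 3.41e-06). Sall4 reached the filter's level in no GPI library and was tested through its vehicle counts. Pou5f1 did not reach the filter and had a mean of 17.5 normalized counts with vehicle and 0.61 with GPI. Zfp42 was at 0 in all 5 GPI libraries. Tex15 and Taf4b, named after their values were seen, were higher with GPI, with log2 fold changes of 0.57 ± 0.13 and 0.83 ± 0.15. The summed normalized counts of the list were 2465, 3248, 2689, 3383 and 2411 with vehicle and 2113, 1869, 1926, 2165 and 2005 with GPI in M1 to M5. Kit, the most abundant gene of the list, which other gonadal cells also use, had 857 and 771.

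Of the genes of meiotic entry, which NANOS2 restrains in male germ cells, 11 of 15 were tested, 6 were lower and 1 was higher (median log2 fold change -0.69). Sycp1 fell by 5.16 ± 0.51 (edgeR adjusted p = 6.82e-06), the synaptonemal protein gene Hormad1 fell by 4.61 ± 0.54 (edgeR adjusted p = 3.33e-05) and the meiotic cohesin gene Smc1b fell by 2.35 ± 0.22 (edgeR adjusted p = 3.68e-06). Stra8, the gene that opens the meiotic programme, fell by 4.09 ± 0.8 (edgeR adjusted p = 0.00197), with 67.5, 60.9, 69.2, 45.8 and 12.2 normalized counts with vehicle and 7.83, 0, 0, 0 and 7.63 with GPI in M1 to M5. Hormad1 and Stra8 reached the filter's level in no GPI library, so that they were tested through their vehicle counts. Dmc1, named after its values were seen, was higher by 1.09 ± 0.21. Of 10 genes of male germ cell fate, 5 were tested, 1 was lower and 2 were higher (median log2 fold change -0.09). Beside 11.9% of all tested genes called lower and 11.1% higher, nothing is read from these calls about the list. Lefty2, of the Nodal pathway, fell by 2.5 ± 0.41 (edgeR adjusted p = 0.000526), while Cyp26b1, whose enzyme degrades retinoic acid, was higher by 1.81 ± 0.13 (edgeR adjusted p = 4.94e-07) and Dnmt3a by 0.34 ± 0.08 (edgeR adjusted p = 0.00954). Dnmt3l had counts in 1 library, the vehicle gonad of M5.

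The general machinery that the members use showed small log2 fold changes in RNA of whole gonads, which does not give its level in germ cells. Of 11 CCR4-NOT subunits, the deadenylase that NANOS and DND1 proteins recruit, 11 were tested and 0 called in either direction by edgeR, DESeq2 or limma-voom. At an unadjusted edgeR p under 0.05 there was 1, Cnot7 (log2 fold change 0.24 ± 0.09, edgeR adjusted p = 0.0676, higher in 5 of 5 embryos), which passed without M2 (edgeR adjusted p = 0.0339). Their median log2 fold change was -0.03, and their summed normalized counts were 15380 ± 152 with vehicle and 15440 ± 254 with GPI (SD, n = 5). Of 16 P-body proteins, Pumilio proteins and poly(A)-binding proteins, all tested, 1 was lower, Pabpc1, by 0.2 ± 0.06 (edgeR adjusted p = 0.0224), and this call was lost without M3, M4 or M5 (edgeR adjusted p 0.0514, 0.084 and 0.0658). Of 20 DEAD-box helicases used by all cells, the relatives of DDX4, 20 were tested and 1 was lower, Ddx46, by 0.3 ± 0.07 (edgeR adjusted p = 0.005), and 2 were lower without M2. The medians of the 2 lists were -0.04 and -0.1.

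Other cell types of the gonad changed in the same libraries. All 8 endothelial markers were lower (median log2 fold change -3.23), and their summed normalized counts were 7391, 7771, 6990, 8143 and 7253 with vehicle and 816, 986, 670, 541 and 727 with GPI in M1 to M5. Cdh5 was the most abundant with vehicle (mean 2827) and fell by 3.63 ± 0.12 (edgeR adjusted p = 3.76e-10). With GPI, Kdr had a higher mean than Cdh5, at 282 against 232. Pecam1 fell by 4.16 ± 0.15 (edgeR adjusted p = 1.07e-09) and Flt1 by 5.18 ± 0.18 (edgeR adjusted p = 7.99e-10), and no endothelial, macrophage or erythroid marker was at 0 in all 5 GPI libraries. Macrophage markers were lower in 7 of 8 (median -1.66), with sums of 918, 628, 778, 703 and 627 with vehicle and 444, 375, 353, 201 and 232 with GPI, and Cd68 the most abundant. Erythroid markers were lower in 7 of 7 (median -1.59), with sums of 1796, 2408, 4710, 4502 and 3726 with vehicle and 1401, 845, 778, 843 and 1991 with GPI. Of the macrophage markers 1, C1qa, reached the filter's level in no GPI library. Hbb-y was the most abundant erythroid gene, and near-identical globin genes can share reads.

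Most Sertoli markers and the tested Leydig markers were higher. Sertoli markers were higher in 9 of 12 (median log2 fold change 0.57), with sums of 12530, 14930, 12650, 15210 and 14890 with vehicle and 12820, 16770, 16760, 20070 and 17990 with GPI in M1 to M5. Wt1, the most abundant, was not called (log2 fold change -0.14 ± 0.07, lower in 4 of 5 embryos), nor were Amh (0.08) and Cldn11 (0.21). Sox9 was higher by 0.59 ± 0.09 (edgeR adjusted p = 0.000408), Sox8 by 1.43 ± 0.16 (edgeR adjusted p = 2.66e-05) and Dhh by 0.92 ± 0.15 (edgeR adjusted p = 0.000425). Leydig markers were higher in all 7 tested of 8 (median 1.75), with sums of 1604, 3159, 4594, 2422 and 6028 with vehicle and 10550, 11330, 17270, 19970 and 14500 with GPI. Hsd3b1 was the most abundant Leydig marker with vehicle (mean 1718). With GPI it was Cyp11a1, at 5868 against 5275 for Hsd3b1. Pregranulosa markers had 1 lower and 1 higher of 6 tested (median -0.16), with sums of 1982, 1986, 1937, 1705 and 1627 with vehicle and 1626, 1454, 1518, 1100 and 1516 with GPI, lower in each embryo, and Wnt4 the most abundant. The higher gene, Bmp2, was not called without M4 (edgeR adjusted p = 0.0539). Mesonephros markers had 1 lower of 3 tested, Emx2, also the most abundant (median -0.28). Their sums were 1828, 1383, 1537, 1185 and 1056 with vehicle and 964, 1116, 743, 725 and 968 with GPI. Emx2 made up most of these sums, with a mean of 981 against 1398 for the list with vehicle. The mesonephros had been removed before RNA was extracted, and the source of the Emx2 counts was not tested. Over all tested genes 11.9% were called lower and 11.1% higher, so nothing is read from the pregranulosa and mesonephros calls about their lists. Gata3, a mesonephros marker, had a log2 fold change of 0.1 ± 0.25. The part of these changes in the counts of Ddx4 and Dazl was not tested.

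**Figure D4:**
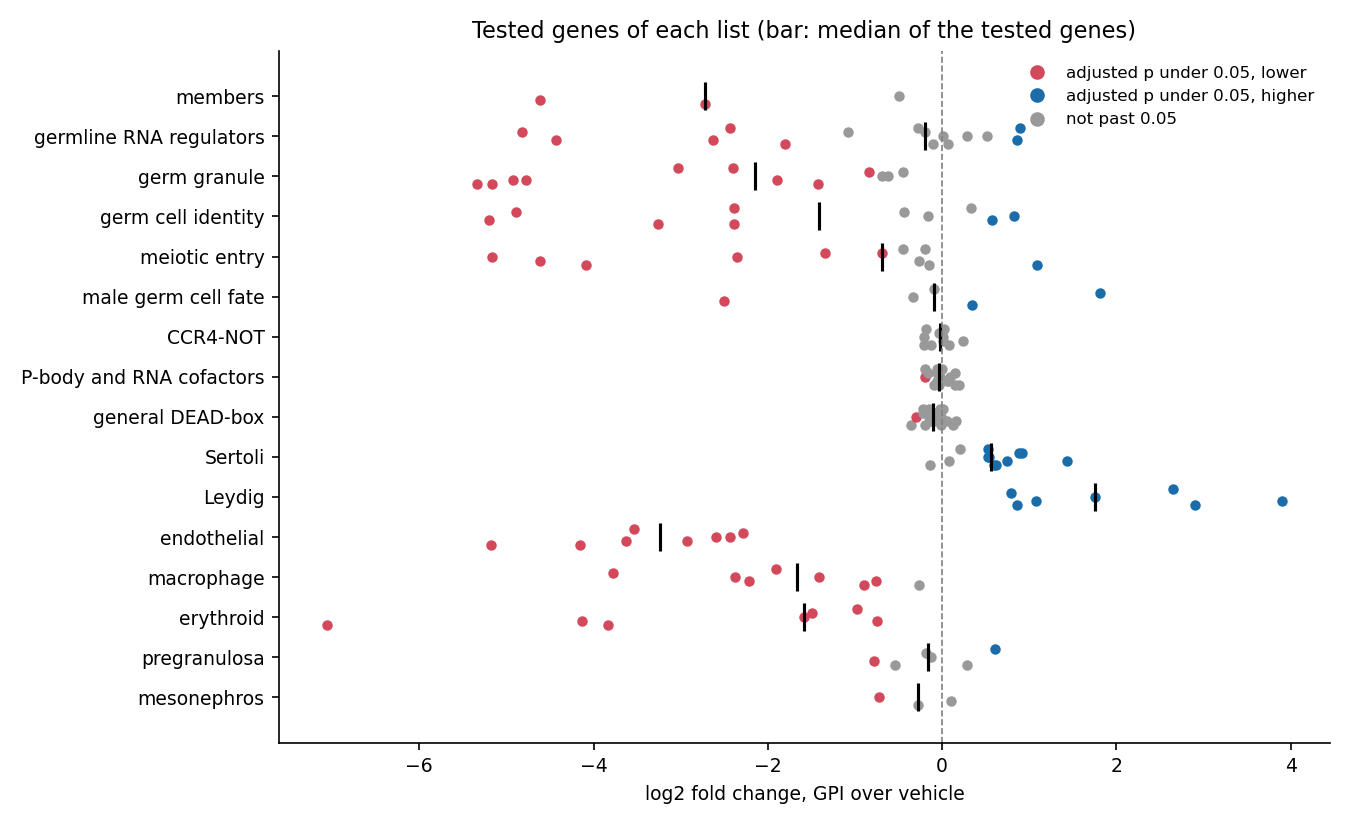
Log2 fold change of GPI over vehicle (x axis) for the tested genes of each list, with each dot a gene, red for lower, blue for higher and grey for not past 0.05, and the bar the median of the tested genes. The medians run from -3.23 for endothelial to 1.75 for Leydig markers, and the CCR4-NOT, P-body and DEAD-box lists lie within 0.4 of 0.

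Over the 10 libraries, the genes most like Ddx4 by Pearson correlation of log2 normalized counts, among 11103 genes averaging 50 counts or more per library, were Itga11 (r = 0.979), Sycp1 (0.975), Zfp69 (0.971), Lrrc32 (0.966) and Slc9a3r2 (0.965). Each of the 5 was called lower, and of these Sycp1 is a germ cell gene. Dazl had r = 0.91 with Ddx4. With the mean of each treatment subtracted, the likeness of Ddx4 to Sycp1 was 0.933 and to Dazl 0.562, and the other genes nearest to Ddx4 were Polr2f (0.946), Vps33b (0.93), Arhgap18 (0.921) and Ndufa5 (0.919). Arhgap18 was called lower (log2 fold change -0.77 ± 0.08), and the other 3 were not called. These values describe 10 libraries that share treatment and pairing, and no p was computed.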

How the data were processed

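Raw counts were deposited by the authors, who aligned the reads with STAR 2.5 (mm10) and assigned them, without strand, to RefSeq genes with featureCounts of Subread 1.5.0-p1. Counts of the 10 libraries were scaled by TMM, filtered by filterByExpr (minimum count 10, minimum total 15; 13941 genes kept) and tested with edgeR 4.0.16 quasi-likelihood fits on mouse and treatment in R 4.3.3, Benjamini-Hochberg adjusted over all tested genes at 0.05. The standard error was taken as the size of the log2 fold change divided by the root of F. Members below the filter were compared by exact permutation. The procedure was tested on simulated data.

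The gonads of 1 embryo were paired by their label. Deviations from the treatment mean correlated by 0.06 within embryos and -0.015 between them (p = 0.05, exact permutation, one-sided, 120 pairings). A fit with no replicate block called 2 members lower as well. Pairs of libraries within a treatment were checked for duplicates and differed (chi-square over degrees of freedom between 6.42 and 27.8).

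The members and lists were chosen with earlier results of these data known, so lists were not tested as sets. Genes to name were drawn from the members, the 3 smallest p in each list, the first gene of each germ cell, Sertoli and endothelial list, and the genes most like Ddx4. Others named, such as a list's most abundant gene, were chosen after their values were seen. Gcna was not found in the table. CpG counts and the motif counts over lists were added after the values were seen. Alternatives were DESeq2 1.42.0, limma-voom (limma 3.58.1), other scalings, filters and prior counts, and each embryo left out. Intervals and limits cover counting error only.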

Additional observations from a re-analysis of the deposited data

Results flagged for a closer look

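Of 170 groups of 5 values examined, 6 held a value far from the other 4, and about 1 in 20 would by chance. Nanos2 had 27.4 normalized counts in the vehicle gonad of M2 against 0 to 1.11 in the other vehicle gonads, and its log2 ratio in M2 was -3.39 against 0 to 0.964 in the other embryos. Dnmt3l had 2.29 normalized counts, from the vehicle gonad of M5, against 0 in the others, which equals the limit that a count of 0 allows in that library. Lgr5 had 192 in the vehicle gonad of M1 against 104 to 118. Emx2 had 791 in the vehicle gonad of M5 against 993 to 1061, and Ddx21 had 1207 in the GPI gonad of M1 against 1347 to 1388.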

How the results depend on the processing

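Dazl and Ddx4 were called lower under each alternative that tested them, and Dnd1 under none. Their log2 fold changes ran from -5.17 to -4.34 for Dazl, -3.36 to -2.34 for Ddx4 and -0.78 to -0.24 for Dnd1 with an embryo left out. With at least 10 counts required in every library 1 member was called lower, since Dazl was no longer tested, and 3 germ granule genes and 0 other germline RNA regulators were called lower. Fewer genes tested accounts for this by construction. With that filter 1 germ identity, 3 meiotic and 0 male fate genes were lower. DESeq2 and the fit without a filter each called 10 germ identity genes lower in place of 5 and 2 male fate genes in place of 1. Genes called higher numbered 1544, and 969 without M3 and 1024 without M4 (969 to 1430 with an embryo left out). Genes called lower then numbered 1287 to 1686, germ granule genes lower 7 to 11, other germline RNA regulators lower 5 to 6 and members lower 2. Differences between members ran from -2.27 to -1.54 for Dazl minus Ddx4, 1.81 to 2.91 for Dnd1 minus Ddx4 and 3.68 to 5.03 for Dnd1 minus Dazl. Without the replicate block 1610 genes were lower and 1498 higher, and the block changed the call of no member.

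The Nanos2 mean difference ran from -6.66 to 0.48 and reversed without M2. For Nanos3 it ran from -6.91 to -3.42. For these 2 genes the other scalings and the omission of single embryos, and for levels another transcript length, were added after seeing the data. Genes near 0 that were not called changed sign. Gata3 (0.1) was 0 with limma-voom, -0.01 without the replicate block, and -0.18 to 0.35 with an embryo left out. The same ranges were -0.06 to 0.19 for Elavl2, -0.26 to 0.09 for Polr2f, -0.2 to 0.05 for Vps33b and -0.17 to 0.03 for Ndufa5. Ddx21 (edgeR adjusted p = 0.0524) passed 0.05 in 4 alternatives, with an edgeR adjusted p of 0.0173 to 0.0476, so 2 DEAD-box genes were lower there. With total counts alone 1 Sertoli gene was lower, and without the replicate block Bmp2 was not called (edgeR adjusted p = 0.0574). Without the replicate block 7 Sertoli genes were higher in place of 9. With an embryo left out 6 to 9 were higher, and germ identity genes lower numbered 5 to 7. The cause was not tested. Few reads decide the values of Nanos2, Nanos3 and Dnd1, and the effect of depth on them was not tested.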
